A study of Mus musculus with 2 samples.

Results

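Bromodomains are protein modules that bind acetylated lysine, most often on histone tails, and so read the mark that histone acetyltransferases write and HDACs remove. Most bromodomain proteins act as parts of larger machines that modify or move nucleosomes, and several of them are needed for blood stem cells to be maintained in mice, Brpf1 and Bptf among them. The genes described here are Brd1, Brd2, Brd3, Brd7, Brd8, Brd9, Brpf1, Brpf3 and Bptf, which were measured in LSK cells of nondiabetic and diabetic mice. They were chosen by name, as every non-control probe whose transcript identifier belongs to 1 of these 9 genes, which gave 12 of the 55661 probes kept and 9 of the 21360 genes that could be named.

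LSK cells are bone marrow (BM) cells without lineage markers that carry Sca-1 and c-kit. Their RNA was hybridised to 2 Agilent 1-colour arrays, 1 from nondiabetic C57BL/6J mice and 1 from C57BL/6J mice made diabetic with streptozotocin (STZ), a toxin that destroys pancreatic β cells. Per the labels, each array stands for 3 female mice and started from 8.3 ng of RNA, and neither age nor time since STZ is stated. The study's text describes male mice for its STZ experiments, so the sex of the array mice is given here as labelled only. The RNA was amplified before labelling, and both arrays lay on 1 slide read in 1 scan. With 1 array per condition there is no replicate, so no difference below was tested, and each describes 2 arrays.

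The cell type was checked on the genes of both sorted antigens, Kit and Ly6a, and on the progenitor genes Cd34 and Flt3, and 4 of the 4 passed the background flag on each array. Kit, the gene of c-kit, read 4635 on the nondiabetic and 4735 on the diabetic array, and Ly6a, the gene of Sca-1, read 475 and 701 (processed intensity). Intensities and sums in this paragraph are not scaled between the arrays, whose 75th percentiles were 168 and 182, while log2 ratios are scaled. After scaling, the log2 ratio, diabetic over nondiabetic, was -0.09 for Kit and 0.44 for Ly6a. Among markers of other cells, the summed intensity of 5 erythroid genes was 2985 and 6721. The summed intensity of 5 stromal and endothelial genes was 193 and 965, nearly all of it from Pecam1 (162 and 936), while Col1a1 and Cdh5 stayed at background levels on both. Summed intensities were 159 and 231 for 4 B cell genes, and 1135 and 1522 for 3 megakaryocyte genes. Of the B cell genes, Cd79a had 39.3 and 121, and Cd79b had 102 and 84.5. The 5 T and NK cell genes summed to 3576 and 2806, of which Nkg7 gave 3291 and 2583. The 2 probes of Nkg7 had log2 ratios, diabetic over nondiabetic, of -0.47 and 0.87. The 5 granulocyte-monocyte genes summed to 42664 and 41656, and 4 of them had negative log2 ratios and 1 a positive one. Of these, Itgam, a gene that lineage panels usually target, gave 34686 and 35189. Its probes had log2 ratios from -1.30 to -0.10. Each sum thus leans on its brightest probes. The part of such cells in the bromodomain values was not tested. In sorted bulk RNA, fewer cells of a type and less RNA per cell cannot be told apart.

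All 9 bromodomain genes had at least 1 probe well above background in nondiabetic LSK cells, and 8 of them did in diabetic LSK cells. Of the 12 probes, 11 were well above background on both arrays by the flag of the scanner software, against 58.4% of all probes. The exception was the probe of Brd9, which belonged to the 4.15% of all probes that passed this flag on the nondiabetic array alone. Intensities are given as the scanner software wrote them, with the software's modelled error for the spot, and they cannot be compared between probes. Each of these 12 probes had 1 spot on the array.

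**Figure D1:**
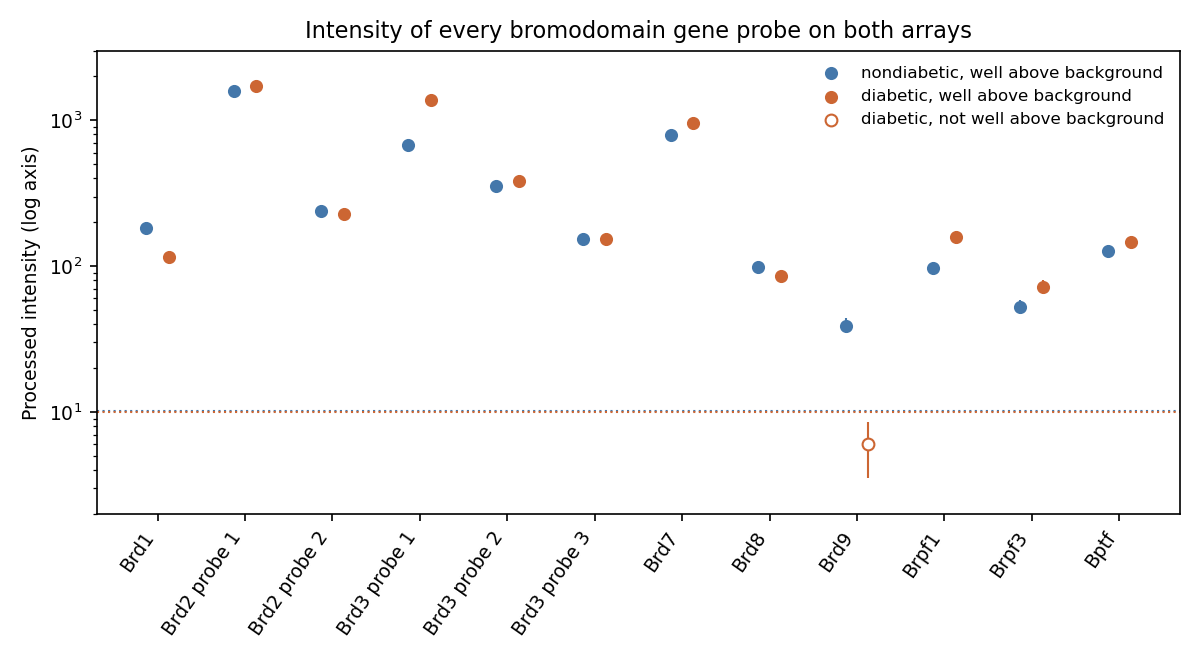
Processed intensity (log axis) of each of the 12 probes on the nondiabetic (blue) and the diabetic (orange) array, with bars for the scanner software's modelled error and dotted lines at the lowest intensity well above background on each array (10.2 and 10.1). Brd9 is the only gene with an open point, at 6.00 on the diabetic array, and for most other probes the points of both arrays lie close together.

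A log2 ratio is the diabetic over the nondiabetic value, after each array was divided by its 75th percentile (168 and 182). By the brightest probe of each gene, 0 of the 9 genes were up by 2-fold or more in diabetic LSK cells and 1 was down by 2-fold or more. Of all 15192 genes with a ratio or a bound, 11.0% were up and 10.1% were down by that much, so the count of bromodomain genes was close to that of genes in general. Over single probes, 0 of 12 were up and 1 was down by 2-fold or more, beside 11.2% of all probes in each direction. The log2 ratio lay within 0.5 of 0 for 5 of the 9 genes, beside 54.6% of all genes. The median log2 ratio was 0.10 over the 9 genes and 0.02 over all genes.

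**Figure D2:**
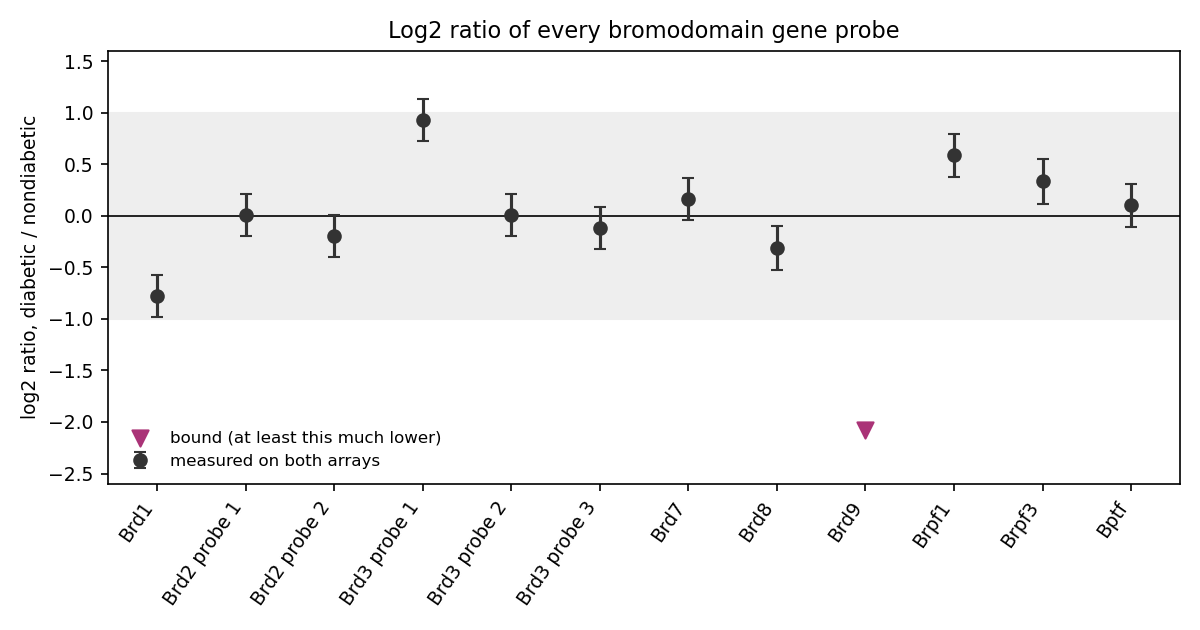
Log2 ratio of diabetic over nondiabetic for each of the 12 probes, with bars for the error that the scanner software's modelled errors give and a grey band for changes under 2-fold. The triangle marks Brd9, whose ratio is a bound, at least 4.22-fold lower by processed intensity, and the other 11 probes lie inside the band.

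The bromodomain and extra-terminal (BET) genes Brd2 and Brd3 encode proteins with a pair of bromodomains each, which hold transcription regulators at acetylated chromatin. Brd3 had 3 probes for the same transcript, and they did not give the same answer. The brightest (A_55_P2037897) read 673 ± 67.3 on the nondiabetic and 1386 ± 139 on the diabetic array, which is a log2 ratio of 0.93 with a modelled error of 0.20. The second (A_52_P652104) had 354 ± 35.5 and 385 ± 38.6, a log2 ratio of 0.01. The third (A_55_P2037902) had 154 ± 15.6 and 154 ± 15.6, a log2 ratio of -0.12. Only the brightest probe of Brd3 differed by more than its modelled error, and the mean over the 3 probes was 0.27 ± 0.57 (SD over probes, n = 3). The 3 log2 ratios spanned 1.04, while the median span was 1.06 over the 457 genes with 3 probes that passed the flag on each array, and 53.0% of them spanned at least 1. Among 2356 genes whose brightest probe was within 2-fold of this probe in mean intensity, 5.48% had a log2 ratio at least as high. Repeated probes of like intensity give the spread between spots, an SD of the log2 ratio with a median of 0.06 over 35 probes.

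Brd2 showed almost the same intensity on both arrays. Its brightest probe (A_55_P1958678) had 1583 ± 158 and 1724 ± 172, a log2 ratio of 0.01 that turned to -0.02 under quantile normalization, to -0.01 under loess and to -0.01 in the authors' processed values. The second probe (A_55_P1953545) had 240 ± 24.1 and 227 ± 22.8, a log2 ratio of -0.19 with a modelled error of 0.20. Both probes of Brd2 thus lay within the modelled error of 0, and their span of 0.20 was below the median span of 0.58 over the 2705 genes with 2 such probes. The near-zero second probe of Brd3 also took a negative sign under quantile normalization (-0.02), loess (-0.02), normexp (-0.07) and in the authors' processed values (-0.01).

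Brd1, Brpf1 and Brpf3 encode scaffolds that join MYST-family histone acetyltransferases to their chromatin targets, and each was measured by 1 probe. Brd1, whose product is also needed for red cell formation in the mouse fetal liver, read 182 ± 18.3 on the nondiabetic and 115 ± 11.7 on the diabetic array. Its log2 ratio was -0.78 with a modelled error of 0.21, the lowest of the 11 probes measured on both arrays. Brpf1 went the other way, from 96.9 ± 9.99 to 158 ± 16.0, a log2 ratio of 0.59 with a modelled error of 0.21. Brpf3 had 52.8 ± 5.83 and 72.1 ± 7.61, a log2 ratio of 0.33 with a modelled error of 0.22. The 3 scaffold genes therefore did not share a direction. The changes of Brd1 and Brpf1 were larger than the spread between spots of repeated probes of like intensity, where the SD of the log2 ratio had medians of 0.12 and 0.13 and the highest SD was 0.25 for both, a spread that leaves out differences between mice, sorts and amplifications. Among genes of like intensity, 15.6% had a log2 ratio at least as low as that of Brd1 and 23.9% one at least as high as that of Brpf1.

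Brd9 is a subunit of the non-canonical BAF (ncBAF) form of SWI/SNF, and Brd7 of its PBAF form. Both forms use ATP to remodel nucleosomes. The single probe of Brd9 (A_66_P109049) read 39.1 ± 4.64 in nondiabetic LSK cells and 6.00 ± 2.48 on the diabetic array, where it was not well above background. By processed intensity, Brd9 was at least 4.22-fold lower after STZ, a bound of -2.08 in log2. The bound was measured against the lowest intensity well above background on the diabetic array. It leaves out the spot's modelled error and depends on how background was subtracted. The spot on the diabetic array still carried the weaker flag for a signal above background, and 2 of 308 negative control spots were at least as bright, with a median of 2.32 and a maximum of 6.84 over these spots. Before background subtraction its pixel median was 76.5 over a local background of 33 on the nondiabetic and 45.5 over 29 on the diabetic array. The median log2 ratio of 31 detected neighbouring spots, within 3 rows and columns, was -0.13. Repeated probes of like mean intensity had a median SD between spots of 0.33 over 19 probes, with a highest SD of 0.52. All spots of these 19 probes were well above background on both arrays. They therefore do not show the spread at the intensity of the diabetic Brd9 spot. Among 3051 genes of like intensity, 16.1% were at least 2-fold lower, and 4.98% had a log2 ratio at least as low as the bound of Brd9. With normexp background correction, which adds an offset of 50 to every signal, the bound shrank to -0.64 in log2 and no longer passed 2-fold. That offset is larger than the Brd9 intensity on the nondiabetic array, so 2-fold could hardly be reached under normexp.

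Brd7 was nearly level, with 791 ± 79.2 and 961 ± 96.1, a log2 ratio of 0.16 with a modelled error of 0.20. Brd8, a subunit of the TIP60/NuA4 acetyltransferase complex, had 98.2 ± 10.1 and 85.7 ± 8.92, a log2 ratio of -0.31 with a modelled error of 0.21. Bptf, the largest subunit of the NURF remodelling complex, had 126 ± 12.8 and 147 ± 14.8, a log2 ratio of 0.10 with a modelled error of 0.21. For Brd7 and Bptf the difference was smaller than the modelled error, and for Brd8 it was 1.48 times that error.

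**Figure D3:**
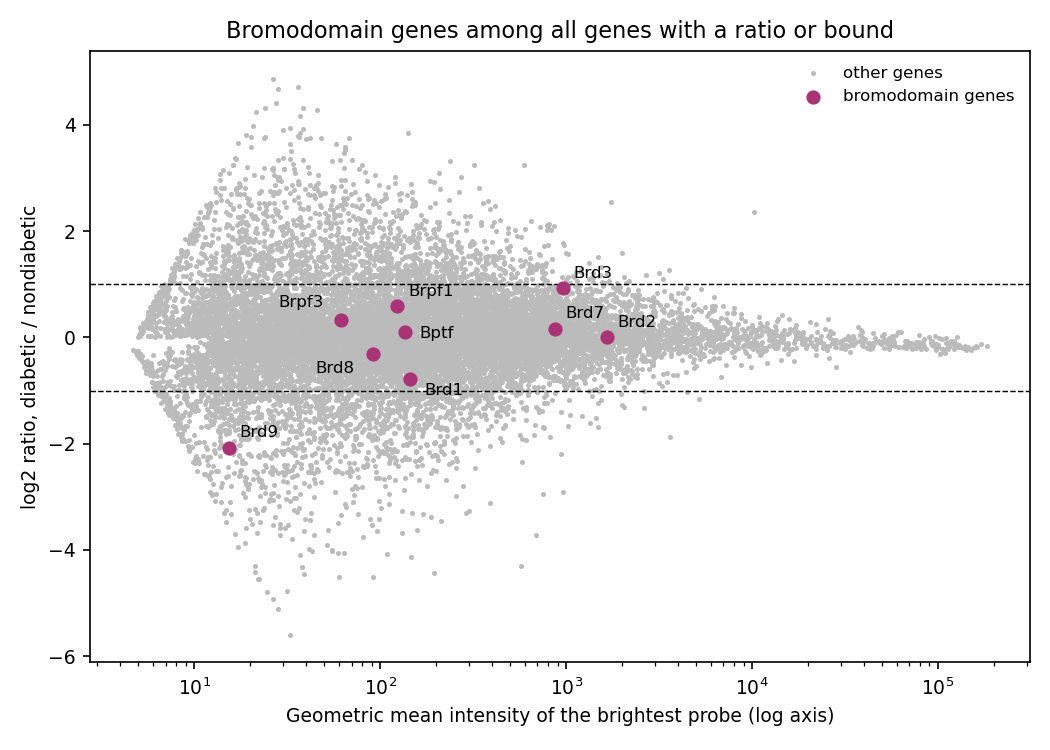
Log2 ratio (diabetic over nondiabetic, or its bound) against the geometric mean intensity (log axis) of the brightest probe, for all 15192 genes with a ratio or bound (grey) and the 9 bromodomain genes (purple), with dashed lines at 2-fold. Brd3 lies just under the upper dashed line, toward the upper side of the cloud at its intensity. Brd9 is below the lower dashed line among the dim genes, where 4.98% of genes of like intensity were at least as low. The other 7 genes lie between the dashed lines.

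The remaining genes with a bromodomain were read the same way from a list of 30. Of these, 28 were named on the array and 26 had a ratio or bound: 3 were up and 2 were down by 2-fold or more, close to the 11.0% and 10.1% of all genes, and the median log2 ratio was 0.04. Brdt, the BET gene known from the testis, had 28.9 and 18.9, a log2 ratio of -0.73. Ash1l, a histone methyltransferase, had 690 and 4389, a log2 ratio of 2.55 and the highest in this list. Sp100, a protein of nuclear bodies, had a log2 ratio of 1.98, and Zmynd8 had one of 1.78 by its brightest probe but -0.13 by another. Atad2, an ATPase linked to chromatin, had 61.5 and 14.6, a log2 ratio of -2.19, and Brwd3 was at least 3.85-fold lower. Ash1l, Sp100 and Atad2 had 1 probe each, so nothing on the arrays repeats their values. Under normexp, Ash1l and Zmynd8 stayed past 2-fold, with 2.55 and 1.69, while Sp100 (0.89), Atad2 (-0.65) and Brwd3 (-0.57) did not. The mean over its probes took Zmynd8 to 0.58.

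The partners of the bromodomain proteins were described complex by complex, in lists too short to set their counts apart from the 11.0% and 10.1% of all genes that were up or down by 2-fold. Some genes stand in more than 1 list, such as Smarca4 and Pbrm1, which carry bromodomains themselves. Among 6 genes that work with the BRPF scaffolds, 1 was up and 2 were down by 2-fold or more, with a median log2 ratio of -0.34. The acetyltransferase Kat6b had 231 and 24.9, a log2 ratio of -3.33, while its paralog Kat6a had 0.74. Kat7, the acetyltransferase of the HBO1 complex, had a log2 ratio of 1.01, just past 2-fold, and under 2-fold with loess or in the authors' processed values. Ing5 had -1.05 and Ing4 -0.95, and both are subunits of such complexes that bind methylated histone tails. Of the 3 acetyltransferases served by these scaffolds, Kat6b was thus lower and Kat6a and Kat7 higher, each by 1 probe.

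Of 4 partners of Bptf in NURF, 1 was at least 2-fold lower: Smarca1, an ATPase subunit, had 70.4 and 8.16 and was at least 7.60-fold lower, while the related ATPase Smarca5 had a log2 ratio of 0.85. Of 13 partners of Brd8 in TIP60/NuA4, 1 was at least 2-fold higher, namely Epc2, with log2 ratios of 1.83 and 1.16 by its probes, and the median was 0.05. For Brd9, 1 of 5 ncBAF partners was at least 2-fold higher, which was Bicra with 64.9 and 199, a 2.83-fold difference, and the median was -0.02. Smarcd1, another ncBAF subunit, also had only a bound, with 14.3 on the nondiabetic array and not well above background on the diabetic, at least 1.54-fold lower. For Brd7, the 4 PBAF genes Pbrm1, Arid2, Phf10 and Smarca4 had log2 ratios from 0.08 to 0.72 by their brightest probes. Of these genes, 0 of 4 passed 2-fold. Further probes differed, with -1.29 for a probe of Pbrm1, -0.19 for a probe of Smarca4 and 2.27 for a probe of Arid2. Among 6 genes of the elongation factor P-TEFb and its regulators, through which BET proteins act on transcription, 0 passed 2-fold and the median was 0.20. Of 7 readers of acetyl-lysine that use a domain other than the bromodomain, 2 were at least 2-fold higher, Mllt3 with a log2 ratio of 1.47 and Dpf3 by a bound of at least 2.24-fold, and the median was 0.38. By the brightest probes, the 4 PBAF genes all had positive log2 ratios, beside a median of 0.02 over all genes. This shared sign depends on the probe, since other probes of Pbrm1 and Smarca4 were negative. The other lists held both signs, and no list had a median past 2-fold. Under normexp, Kat6b had -1.97 and Epc2 1.34, while Kat7 (0.78), Ing5 (-0.74), Smarca1 (-0.99), Bicra (0.96), Mllt3 (0.98) and Dpf3 (0.22) were under 2-fold. Here too the offset weighs most on dim probes.

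**Figure D4:**
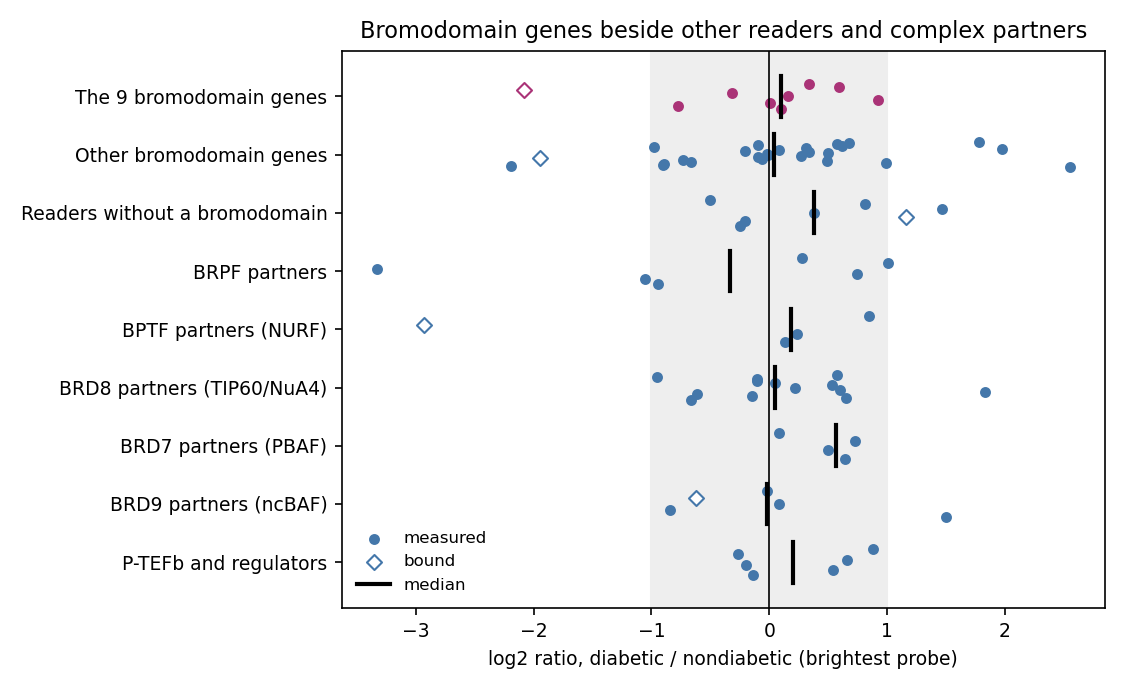
Log2 ratio (diabetic over nondiabetic) by the brightest probe of each gene, 1 row per list, with filled points for genes measured on both arrays, open diamonds for bounds, black bars for medians and a grey band for changes under 2-fold. Kat6b among the BRPF partners is farthest to the left and Ash1l among the other bromodomain genes farthest to the right, while the medians of all 9 lists lie inside the band.

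Scaling moved the values of the 9 genes little, although it turned the near-zero sign of Brd2. Over quantile normalization, median centring, loess and the authors' processed values, Brd1 stayed between -0.79 and -0.76, Brpf1 between 0.58 and 0.61, Brpf3 between 0.32 and 0.37, Brd8 between -0.33 and -0.29, Bptf between 0.09 and 0.12, and Brd7 between 0.13 and 0.18. Brd3 by its brightest probe stayed between 0.90 and 0.95 under these scalings, and taking the mean over its probes moved it to 0.27. Normexp brought Brd1 to -0.61 and Brpf1 to 0.42, shifts larger than the median SD between spots. Brd9 stayed between -2.09 and -1.99 under the scalings, and its value changed with the treatment of dim signals. Without any filter on dim probes it was -2.82, under normexp -0.64, and it had no value where a probe had to pass the flag on each array.

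**Figure D5:**
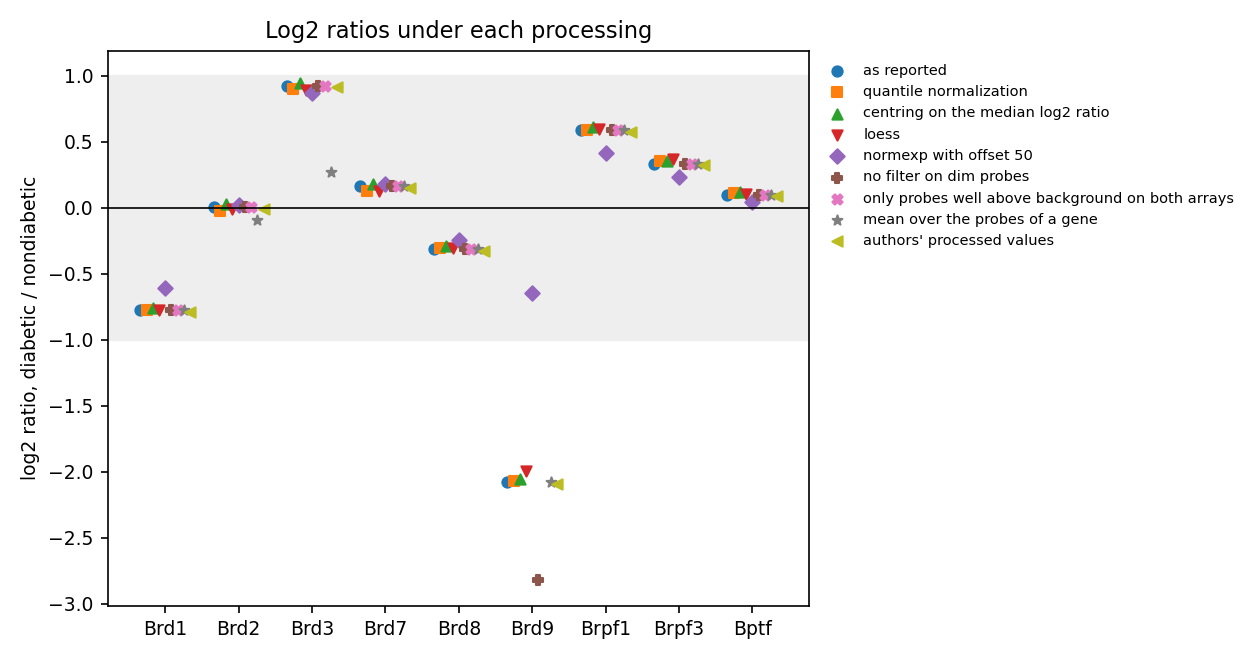
Log2 ratio (diabetic over nondiabetic) of each of the 9 genes by its brightest probe as reported and under each of 8 other ways of processing, 1 symbol each, with a grey band for changes under 2-fold. Brd9 has the widest range, from -2.82 to -0.64, the mean over the probes of Brd3 sits at 0.27, and normexp brings Brd1 to -0.61 and Brpf1 to 0.42.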

How the data were processed

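Both scanner files deposited by the authors come from Agilent Feature Extraction 11.5.1.1, and their processed intensity is background-subtracted within the array and not normalized between arrays. A further deposited table holds these intensities times 1 constant per array. The array design refers to mouse build mm9. Coordinates are not given here. The study's methods do not state the normalization.

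Spots that either array flagged as outliers, non-uniform or population, were dropped (192 on the nondiabetic and 147 on the diabetic array), log2 intensities were scaled by the 75th percentile of the 59305 non-control spots, and spots of a probe were averaged. The scanner software flagged 62.6% and 63.9% of probes as well above background. A probe flagged on 1 array has a bound, against the higher of its own value and the lowest flagged value on the other array. Each bound holds for the intensities as processed and leaves out spot error. Probes flagged on neither have no ratio. Names came from transcript accessions in a RefSeq table of GRCm38.p6, which named 28319 probes; probes without a match were not used for any gene. For a gene with several probes, the one with the highest mean log2 intensity stood for it. The modelled error of a log2 ratio combines both spots' errors. Spot spread comes from 217 probes with at least 5 spots, all of them well above background on both arrays. These errors leave out differences between mice, sorts and amplifications. Probes or genes of like intensity are those within 2-fold.

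The 9 genes and all lists were chosen with earlier results of these data known. All 9 genes are named with every probe, and from other lists up to 4 measured genes past 2-fold. Genes named beyond that (Brdt, Brwd3, Kat6a, Ing4, Smarca1, Smarca5, Smarcd1, Dpf3 and the PBAF genes) were chosen with their values known. Alternatives were quantile normalization, median centring, loess, normexp, no filter on dim probes, only probes flagged on both arrays, the mean over a gene's probes, and the authors' table. Steps were tested on simulated data. Python 3.11.15 with numpy 2.4.6 and pandas 2.3.3, and R 4.3.3 with limma 3.58.1, were used.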

Additional observations from a re-analysis of the deposited data

How the results depend on the processing

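No paired analysis was possible because the 2 conditions have a single array each, so leaving out a replicate was not possible either. Normexp was run on spot medians, and its offset shrinks the ratios of dim probes most. Of the 9 genes, 1 was at least 2-fold lower as reported, and 0 under normexp or where a probe had to pass the background flag on each array, and the counts over their probes were likewise 0 and 0. The count of higher genes was 0 throughout. Under normexp the other counts went to 0 for lower genes among the other bromodomain genes and the NURF partners, to 0 for higher genes among the readers without a bromodomain, the BRPF partners and the ncBAF partners, and to 1 for lower BRPF partners, while medians went to 0.15 for the readers, -0.19 for the BRPF partners and 0.064 for P-TEFb. Over all genes, 1667 were higher and 1538 lower as reported, and 585 and 496 under normexp. Under that flag on each array, 1 other bromodomain gene and 0 NURF partners were lower, 1 reader was higher, and the readers' median was 0.088, since bounds drop out. With the mean over a gene's probes, 1 PBAF gene was higher, and medians were -0.47 for the BRPF partners, -0.11 for NURF and 0.34 for PBAF. Loess and the authors' values left 0 BRPF partners higher, and without a filter 1 ncBAF partner was lower. The cause of the shifts under the mean over probes was not tested. Brd9 was not well above background on the diabetic array, so its size is only bounded.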
